A study of Homo sapiens with 32 samples.

Results

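The transcripts described here are those of 10 genes, of which TERT encodes the catalytic subunit of telomerase. The others act on whether a cell leaves G1. They are the kinases CDK4 and CDK6, the D-type cyclins CCND1, CCND2 and CCND3, and the inhibitors CDKN2A, CDKN2B, CDKN1A and CDKN1B. The 10 genes were chosen by symbol among 47137 gene entries, of which 18583 had values, and all 10 were among those with values. Their RNA was measured by sequencing in HGrC1, a line of human granulosa cells that is immortalized and not luteinized. Granulosa cells surround the oocyte in the follicle. The cells of each of 4 vials were divided into a vehicle control with 0.05% DMSO and cultures given perfluorooctane sulfonate (PFOS), a persistent fluorinated surfactant, at 1, 0.1 or 0.01 µM, and were harvested after 6 and 12 weeks. This gave 8 groups of 4 libraries, 32 in all. Every group, controls included, was cultured in medium with 10% fetal bovine serum and a steroid at 100 nM, which the sample labels name as estradiol and the study's methods as testosterone. HGrC1 is a single cell line, so the 4 vials are separate cultures of that line. The p-values of the main fits measure the spread between the 4 libraries of a group, each from a different vial.

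D-type cyclins bind CDK4 and CDK6, and the active kinases phosphorylate the retinoblastoma protein, which releases E2F factors and lets the cell enter S phase. Proteins of the INK4 family, encoded by CDKN2A (p16) and CDKN2B (p15), bind CDK4 and CDK6 directly. CDKN2A also encodes p14ARF, which stabilizes p53, from another first exon, and the deposited values hold 1 sum for both transcripts. CDKN1A (p21, a p53 target) and CDKN1B (p27) belong to the CIP/KIP family and inhibit cyclin E and cyclin A kinases. TERT restores telomere ends and is silent in most somatic cells. Genes of this kind, among them CDK4, CCND1 and TERT, are introduced to immortalize cells. The sources used here do not name the genes transferred into HGrC1, and the values cannot part transcripts of a transgene from those of the endogenous gene. Because a coding sequence without its untranslated regions is shorter than the gene's own transcripts, values per length of a gene expressed from a transgene may be understated.

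Total counts per library lay between 17907057 and 18553350. Of 18 granulosa markers, 13 had a median of at least 10 counts, among them FOXL2 (median 20 counts), GATA4 and WT1. CYP19A1, the aromatase gene, was at 0 counts in 31 of the 32 libraries, and FSHR had no values. Of 20 markers of other cell types, 8 reached a median of 10 counts, and COL1A1 made up most of their sum. The sum of 6 liver transcripts was 0 to 1 counts in the control and 0.01 µM libraries of 6 weeks and 72 to 174 elsewhere, apart from 919 in replicate 3 of the 12-week control. Where leaving out that library changed a call or moved a count of calls by over 1.5 times, the value without it stands beside the result.

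The sequences upstream of CDK4, CDKN2A and CDKN2B are printed as examples. Those of CDKN1A and CCND3, which were also called in comparisons below, are not printed. CDKN2A and CDKN2B lie next to each other on chromosome 9, with 7578 bases between them, and by edgeR over all 32 libraries CDKN2A was called between the harvests in all 4 treatments and CDKN2B in none, a split that other settings changed, as given with their counts. CDK4 was the most abundant member, and fell at 0.1 µM between the harvests, as did MYC, whose protein binds CACGTG. Whether MYC acts on CDK4 in these cells was not tested. Each sequence is the 250 bases before the start that RefSeq's promoter table gives (GRCh38.p14), read 5′ to 3′ on the gene's strand. For CDKN2B that start lies inside the gene entry, so 8 bases of the window overlap it. Capitals mark CACGTG in CDK4, and GGGCGG or its complement CCGCCC, the GC box, in CDKN2A and CDKN2B.
CDK4, chr12:57752311-57752560, minus strand: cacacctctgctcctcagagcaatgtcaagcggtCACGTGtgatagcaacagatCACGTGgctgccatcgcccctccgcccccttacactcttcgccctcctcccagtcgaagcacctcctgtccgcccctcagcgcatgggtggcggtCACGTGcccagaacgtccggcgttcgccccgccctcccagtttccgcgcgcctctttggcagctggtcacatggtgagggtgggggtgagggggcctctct
CDKN2A, chr9:21995325-21995574, minus strand: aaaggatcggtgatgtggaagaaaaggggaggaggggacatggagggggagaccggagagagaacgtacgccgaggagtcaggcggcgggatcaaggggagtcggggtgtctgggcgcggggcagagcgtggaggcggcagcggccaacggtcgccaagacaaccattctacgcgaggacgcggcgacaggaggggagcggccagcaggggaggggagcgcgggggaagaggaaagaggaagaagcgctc
CDKN2B, chr9:22009306-22009555, minus strand: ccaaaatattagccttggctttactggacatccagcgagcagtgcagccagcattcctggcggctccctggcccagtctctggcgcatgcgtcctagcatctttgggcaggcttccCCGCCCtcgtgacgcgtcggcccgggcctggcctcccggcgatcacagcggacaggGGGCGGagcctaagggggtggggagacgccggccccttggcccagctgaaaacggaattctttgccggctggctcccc
The CDK4 window held 3 CACGTG matches, and 6.35% of 35116 such windows held at least 1. It also held 3 GC boxes, which are left unmarked. The CDKN2B window held 2 GC boxes and the CDKN2A window held 0, whereas 42.6% of all windows held at least 1. The CDKN2A window lies directly before the gene entry. The p16 and p14ARF transcripts have different first exons, so this window does not describe both starts. Both windows on chromosome 9 were rich in G and C (66.8% for CDKN2A and 66.4% for CDKN2B). Of the 10 genes, 8 had an entry, of which 7 held a GC box and 2, CDK4 and TERT, held CACGTG. TERT, with 1 match, did not fall at 0.1 µM between the harvests (log2 fold change 0.24 ± 0.15, edgeR, adjusted p = 0.216). The CDK4 values cannot part transcripts that start at this window from those of a transgene. Both strands were searched, and a match describes letters, not a bound site.

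Levels were compared between genes only per length, in TPM, transcripts scaled by length and to a fixed total per library. CDK4 was the highest, with a median of 8045 TPM over the 32 libraries (range 6423 to 8729), and ranked 9th to 19th of all genes. CCND1 followed with 2420 TPM (1577 to 2756) and CDKN2A with 1040 TPM (847 to 1269). The median of 12614 genes with a mean of at least 10 counts was 15.7 TPM, so CDK4, CCND1 and CDKN2A were all far up the range. The CDKN2A value sums p16 and p14ARF transcripts, so it is not the level of the INK4 inhibitor alone. CDKN1A (152 TPM, 100 to 188), TERT (122 TPM, 91.0 to 184) and CDKN1B (118 TPM, 100 to 130) lay close together. CDKN2B was at 55.8 TPM (43.2 to 62.5), CCND3 at 27.0 TPM (18.3 to 35.7) and CDK6 at 11.5 TPM (8.77 to 13.2). The order from CDK4 to CDK6 held in 32 of 32 libraries at every step except those around TERT. CDKN1A lay above TERT in 23 libraries and TERT above CDKN1B in 22, so neither pair of neighbours kept its order. CDKN1A lay above CDKN1B in all 16 libraries of 6 weeks, where the lowest ratio was 1.15, and in 12 of the 16 of 12 weeks, where the lowest was 0.889.

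**Figure D1:**
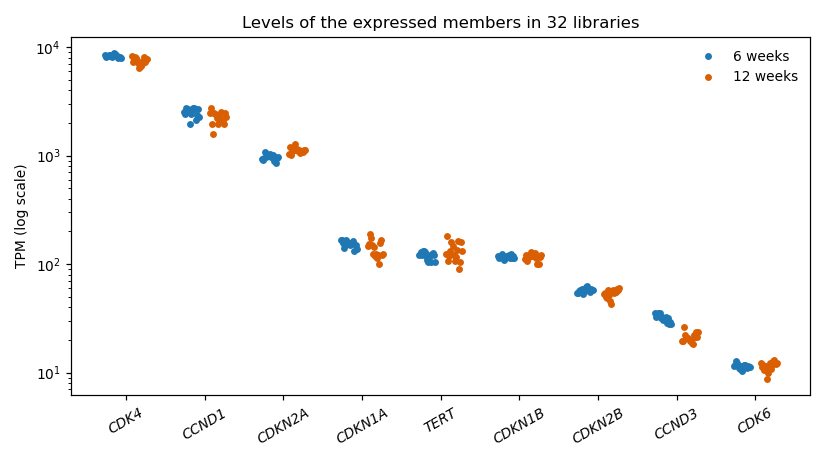
Levels of the 9 expressed members in TPM on a log axis, ordered by their median, with 1 point per library (blue, 6 weeks; orange, 12 weeks). CDK4, CCND1 and CDKN2A have medians of 8045, 2420 and 1040 TPM, and the 12-week points of CCND3 (18.3 to 26.2 TPM) lie wholly below its 6-week points (27.9 to 35.7 TPM).

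CCND2 was the exception. It had 0 counts in 28 of the 32 libraries and 1 count in the other 4, and at this depth a count of 0 allows up to 3 counts per library. CCND1 therefore made up 98.4% to 99.3% of the summed D-type cyclin TPM, and CDK4 made up 99.8% to 99.9% of CDK4 and CDK6. These ranges run from the lowest to the highest of the 32 libraries, and the floor of 3 counts covers counting error only. CCND2 did not pass the filter on low counts, so 9 of the 10 members were tested in each comparison.

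The genes lie at the following places, as the deposited tables give them (GRCh38.p14). For 9 of the 10 the RefSeq gene table held the same coordinates, and for CCND3 it differed. CDK4 (gene ID 1019) spans chr12:57747727-57752310 and CDK6 (1021) spans chr7:92604921-92836573, both on the minus strand. CCND1 (595) spans chr11:69641156-69654474 and CCND2 (894) spans chr12:4273762-4305353 on the plus strand, and CCND3 (896) spans chr6:41934933-42048894 on the minus strand. CDKN2A (1029) spans chr9:21967752-21995324 and CDKN2B (1030) spans chr9:22002903-22009313 on the minus strand. CDKN1A (1026) spans chr6:36676463-36687332 and CDKN1B (1027) spans chr12:12717368-12722369 on the plus strand, and TERT (7015) spans chr5:1253167-1295068 on the minus strand. TSPAN31, which overlaps CDK4 on the opposite strand, had 325 to 456 counts in a stranded library against 128658 to 162710 for CDK4. CDKN2B-AS1, the long antisense RNA across CDKN2A and CDKN2B, had no values.

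The first question was whether PFOS moved these genes against the vehicle control of the same harvest. It moved few. A gene was called at an adjusted p at or under 0.05 (edgeR quasi-likelihood test, Benjamini-Hochberg over all genes). After 6 weeks, 0 of 9 members were called at 0.01 µM (0% of 12836 genes), 1 at 0.1 µM (4.24%) and 0 at 1 µM (0.28%). After 12 weeks, 0 were called at 0.01 µM (0% of 12742 genes), 1 at 0.1 µM (1.07%) and 0 at 1 µM (0.22%). Where 0 were called, 0 and 2 members had an unadjusted p under 0.05 at 0.01 and 1 µM after 6 weeks, and 2 and 1 after 12 weeks. DESeq2 on the same libraries also called 0 there. The share of members called was 1 of 9 at 0.1 µM at either time, against the 4.24% and 1.07% above. With members this few, the counts do not set the members apart from other genes. The median log2 fold change of the members was 0.01 and -0.03 at 0.1 µM after 6 and 12 weeks, beside 0.00 for all genes tested at both times. None of the members changed 2-fold, the size the study asked of its DEGs. In bulk RNA, a change in cell make-up and a change of RNA per cell cannot be told apart.

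CDKN1A was lower at 0.1 µM after 12 weeks. Its counts in the 12-week control were 3334, 3453, 4395 and 4039, for vials 1 to 4, and at 0.1 µM they were 2798, 2552, 2710 and 2232. All 4 exposed libraries lay below all 4 controls. At 0.01 µM the counts were 3339, 2871, 3389 and 2803, and at 1 µM they were 3484, 3734, 2673 and 2719. These 2 groups overlapped the control, and within the 1 µM group vials 1 and 2 were high and vials 3 and 4 low. In CPM, counts scaled to a fixed library size, the control was at 209 ± 25.9 (SD, n = 4) and 0.1 µM at 142 ± 13.3. The log2 fold change at 0.1 µM was -0.56 ± 0.11 (SE), a fold of 0.676 (edgeR, adjusted p = 0.0288). At 0.01 µM it was -0.29 ± 0.11 (edgeR, adjusted p = 0.565) and at 1 µM -0.28 ± 0.11 (edgeR, adjusted p = 0.508). After 6 weeks, CDKN1A lay between 2973 and 3664 counts in every group, and the log2 fold change at 0.1 µM was -0.02 ± 0.05. The difference of the 0.1 µM effect between the times was -0.55 ± 0.13 and did not pass (edgeR, adjusted p = 0.0755).

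The call for CDKN1A rested on few libraries. Replicate 3 of the 12-week control, the library rich in liver transcripts, held the highest CDKN1A count, and without it the log2 fold change was -0.49 (edgeR, adjusted p = 0.112). It was also lost without vial 2 (adjusted p = 0.061), vial 3 (0.186) or vial 4 (0.229) and with no filter on low counts (0.0505), all by edgeR. The fold kept its sign throughout, between -0.66 and -0.47 on the log2 scale. Leaving out that library moved the effect by less than its standard error, and the part of liver transcripts in it was not tested.

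CDKN2B was higher at 0.1 µM after 6 weeks. Its counts were 2290, 2336, 2402 and 2413 in the control and 2564, 2572, 2630 and 2505 at 0.1 µM, with no overlap. At 1 µM they were 2449, 2414, 2576 and 2549, again all above the control, and at 0.01 µM 2337, 2492, 2309 and 2395, within its range or just above. The log2 fold change was 0.13 ± 0.03 at 0.1 µM, an increase of 9.70% (edgeR, adjusted p = 0.0309), and 0.09 ± 0.03 at 1 µM (edgeR, adjusted p = 0.219). The call at 0.1 µM was lost when any 1 vial was left out (edgeR, adjusted p from 0.0702 to 0.165) and with all 32 libraries in 1 fit (0.15). At these doses the sum of liver transcripts was 88 to 141 counts, against 0 to 1 in the control, and their part in the small CDKN2B rise was not tested. After 12 weeks, CDKN2B at 1 µM was 0.11 ± 0.06 above the control (edgeR, adjusted p = 0.585), and the groups overlapped.

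CDK4 and CCND3 were the members that came closest to a call elsewhere. CDK4 counts at 12 weeks were 159016, 141040, 159026 and 161046 in the control and 137977, 128658, 133792 and 142317 at 0.1 µM. The groups overlapped only through vial 2 of the control. The log2 fold change was -0.19 ± 0.06 (edgeR, adjusted p = 0.156, and -0.18, adjusted p = 0.435, without control replicate 3), and DESeq2 on the same libraries called it (adjusted p = 0.0171). Between the times, the 0.1 µM effect on CDK4 differed by -0.25 ± 0.07 (edgeR, adjusted p = 0.0846, and DESeq2, adjusted p = 0.00363). For CCND3, the 6-week control had 726, 676, 714 and 690 counts and 1 µM had 654, 589, 603 and 587, with no overlap. Its log2 fold change was -0.19 ± 0.05 (edgeR, adjusted p = 0.0947), and with the vial as replicate block it passed (edgeR, adjusted p = 0.0458). Without the block, 0 members were called at 1 µM after 6 weeks, and 1 with it. At 0.1 µM, CCND3 had 645, 630, 654 and 597 counts, also wholly below the control, at -0.14 ± 0.05 (edgeR, adjusted p = 0.103).

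CDK6, CCND1, CDKN1B, CDKN2A and TERT were not called by edgeR at any dose or time in the comparison with control. TERT after 6 weeks had 5402, 5882, 5406 and 5806 counts in the control and 4747, 5153, 5342 and 4742 at 0.1 µM, which overlapped. Its log2 fold change there was -0.16 ± 0.06 (edgeR, adjusted p = 0.165), and DESeq2 on the 8 libraries compared called it (adjusted p = 0.0301). After 12 weeks the standard error for TERT was 0.20, so that effects of that size could not be resolved. For CCND1 after 12 weeks it was 0.12 and for CDKN2A 0.06.

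**Figure D2:**
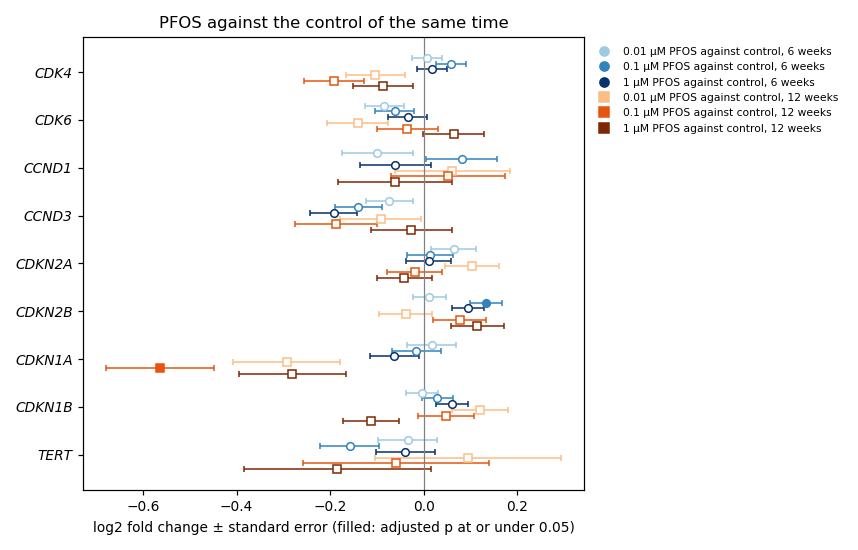
Log2 fold change of the 9 tested members at each PFOS dose against the control of the same time (circles, 6 weeks; squares, 12 weeks), with standard errors. Filled symbols mark CDKN2B at 0.1 µM after 6 weeks and CDKN1A at 0.1 µM after 12 weeks, the only calls, and the other symbols lie between -0.29 and 0.12.

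The second question was how the members differed between the harvests. The 2 times are separate harvests of the same vials, so weeks in culture and anything else that differed between the harvests cannot be told apart. Of the 9 members, 2 were called in the control (36.6% of 12988 genes were called), 3 at 0.01 µM (42.7%), 4 at 0.1 µM (40.3%) and 3 at 1 µM (30%). The members' shares lay on either side of these, and 2 genes, CCND3 and CDKN2A, were called in all 4 comparisons. The 4 time comparisons share no libraries, but they share the vials, the 2 harvests and 1 fit, so they are not independent. DESeq2 on the same libraries called 2, 4, 4 and 4. On the 8 libraries of each comparison edgeR called 2, 3, 6 and 3, among them TERT at 0.01 µM and CCND1 at 0.1 µM. Over all 32 libraries these were not called. TERT was at 0.27 ± 0.15 on the log2 scale (edgeR, adjusted p = 0.15) and CCND1 at -0.19 ± 0.11 (edgeR, adjusted p = 0.163). Markers of other cells moved between the harvests too. Of 10 tested, 4 fell in the control and 5 at each dose, among them PECAM1, an endothelial marker, by 2.10 to 3.15 on the log2 scale and PDGFRA, a stromal marker, by 1.87 to 4.07, and 1 rose in the control. Over all libraries PECAM1 had only 0 to 25 counts and PDGFRA 1 to 40, so these large changes lie near the floor. Not all falling markers were that low. At each dose DESeq2 also called CD14 (33 to 190 counts over all libraries) and CDH1 (18 to 61) lower. Of 13 granulosa markers, 2 rose and 3 fell in the control, 1 and 5 at 0.01 µM, 2 and 3 at 0.1 µM and 2 and 4 at 1 µM, and CYP11A1, the first enzyme of steroid synthesis, fell in all 4. CYP11A1 too was low, at 2 to 50 counts over all libraries. In the control, 5 granulosa markers fell when replicate 3 was left out. The part of these markers in the differences between the harvests was not tested.

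CCND3 fell in every treatment. In the control its counts were 726, 676, 714 and 690 after 6 weeks and 408, 420, 571 and 478 after 12 weeks. At 0.01 µM the 12-week counts were 426, 451, 450 and 431, at 0.1 µM 423, 387, 376 and 461 and at 1 µM 436, 498, 439 and 481. Every 12-week library lay below every 6-week library of the same treatment. The log2 fold change was -0.58 ± 0.07 in the control, -0.59 ± 0.07 at 0.01 µM, -0.63 ± 0.07 at 0.1 µM and -0.41 ± 0.07 at 1 µM (edgeR, adjusted p from 1.67e-08 to 3.78e-05). Control replicate 3, with 571 counts, was the highest of the 12-week libraries, and without it the control fell by 0.68 on the log2 scale. CCND3 level over all 32 libraries was most like those of GPI, a glycolytic enzyme (Pearson r = 0.966), and SLC16A3, a lactate transporter (r = 0.961), and within groups the correlations were 0.794 and 0.672. These libraries share the 2 harvests, so the likeness includes the step between them.

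CDKN2A rose in every treatment. Its counts in the control were 8331, 8338, 8585 and 9429 after 6 weeks and 9604, 11315, 9712 and 10554 after 12 weeks. At 0.1 µM they went from 8808, 8705, 9078 and 8138 to 10624, 10130, 10292 and 9617, with no overlap. The log2 fold change was 0.25 ± 0.05 in the control, 0.29 ± 0.05 at 0.01 µM, 0.22 ± 0.05 at 0.1 µM and 0.20 ± 0.05 at 1 µM (edgeR, adjusted p from 4.78e-05 to 0.00507), a fold of 1.15 to 1.23. Without control replicate 3 it was 0.28 in the control (edgeR, adjusted p = 0.000268). At 1 µM the call was lost without vial 2 (0.15, edgeR, adjusted p = 0.0645). The 12-week libraries at 1 µM, 10020, 10128, 10118 and 10012, lay closest together of any group. CDKN2B, its neighbour, was not called over all 32 libraries (log2 fold change -0.10 to -0.02). It was called lower at 0.1 µM on the 8 libraries compared (-0.11, edgeR, adjusted p = 0.0165) and at 0.01 µM without vial 1 (-0.15, edgeR, adjusted p = 0.0192). Its 12-week counts at 0.1 µM, 2426, 2481, 2360 and 2363, lay below 2564, 2572, 2630 and 2505 after 6 weeks. Of the 7 genes next to the pair on the chromosome, 4 were tested. DMRTA1 rose in the control and KLHL9 rose and FOCAD fell at 0.01 µM, and 0 were called at 0.1 or 1 µM. The genes most like CDKN2A were RPL13 (r = 0.956) and TSPAN4 (r = 0.935) over the 32 libraries.

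**Figure D3:**
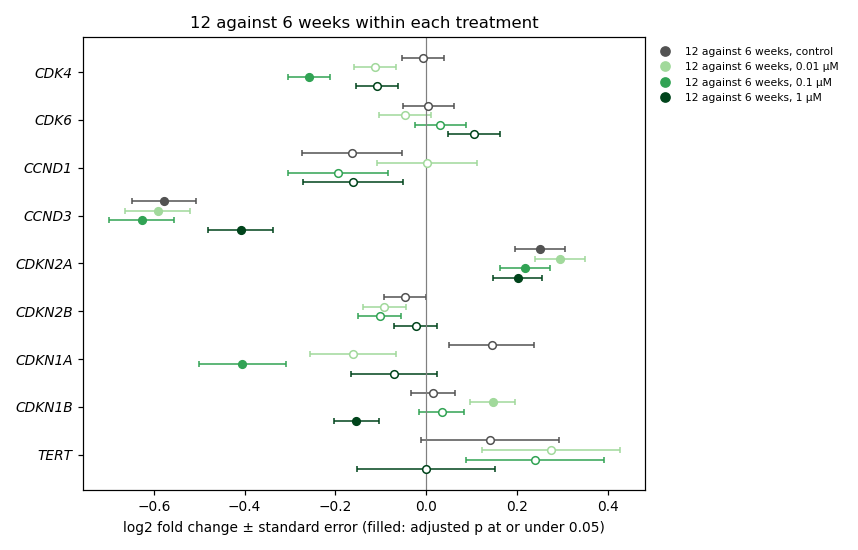
Log2 fold change of 12 against 6 weeks in the control and at each dose, with standard errors. CCND3 lies at -0.63 to -0.41 and CDKN2A at 0.20 to 0.29 in all 4 treatments, filled as called, and the filled symbols for CDK4, CDKN1A and CDKN1B each belong to 1 or 2 treatments.

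CDK4 fell between the harvests at 0.1 µM, from 161045, 162710, 160005 and 160886 to 137977, 128658, 133792 and 142317 counts, with no overlap (-0.26 ± 0.05, edgeR, adjusted p = 3.88e-05). In the control it was at -0.01 ± 0.05. At 0.01 µM it was at -0.11 ± 0.05 (edgeR, adjusted p = 0.0514) and at 1 µM at -0.11 ± 0.05 (edgeR, adjusted p = 0.0785), and DESeq2 called CDK4 lower at both doses (adjusted p = 0.0146 and 0.0245). By edgeR it was called at 0.01 µM without control replicate 3 (adjusted p = 0.0484). CDKN1A fell at 0.1 µM from 3442, 3263, 3425 and 3398 to 2798, 2552, 2710 and 2232 (-0.40 ± 0.10, edgeR, adjusted p = 0.00134). CDKN1B rose at 0.01 µM (0.15 ± 0.05, edgeR, adjusted p = 0.0147) and fell at 1 µM (-0.15 ± 0.05, edgeR, adjusted p = 0.0157). Neither call for CDKN1B was stable to the vials left out: at 0.01 µM it was lost without vial 3 (adjusted p = 0.224) or vial 4 (0.0748), and at 1 µM without vial 1 (0.2) or vial 2 (0.0969), all by edgeR. That CDK4 fell at 0.1 µM and not in the control was tested as the difference of the effect, given above, and did not pass with edgeR. For the difference of the effect between times, 0 of 9 members were called at 0.01 µM (0% of 12988 genes), at 0.1 µM (0.208%) and at 1 µM (0.123%), with 1, 2 and 1 members at an unadjusted p under 0.05. DESeq2 called 0, 2 and 0.

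**Figure D4:**
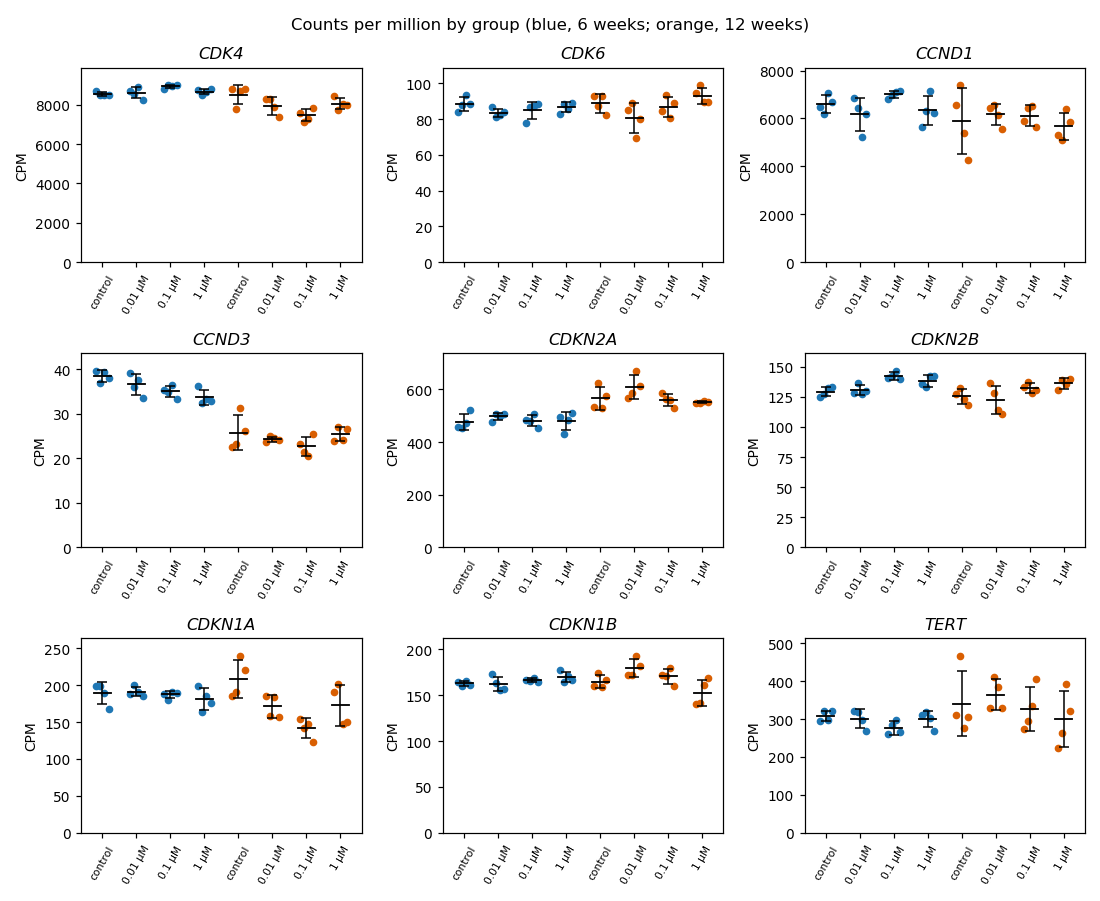
CPM of the 9 tested members in each of the 8 groups, with 4 points per group, the mean as a bar and the SD as whiskers (blue, 6 weeks; orange, 12 weeks). CDKN1A at 0.1 µM after 12 weeks (142 ± 13.3) is the lowest of its groups, and CCND3 steps down and CDKN2A steps up at 12 weeks in every treatment.

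Ratios per length followed the same genes. CDKN1A over CDKN1B averaged 1.47 ± 0.22 (SD, n = 4) in the 12-week control, 1.10 ± 0.11 at 0.01 µM, 0.958 ± 0.06 at 0.1 µM and 1.33 ± 0.33 at 1 µM. At 0.01 and 0.1 µM the libraries did not overlap the control (two-sided, exact permutation p = 0.0286, the lowest that 4 against 4 libraries can give, adjusted p = 0.0952). Transcripts of CDKN2A (p16 and p14ARF together) and CDKN2B were set over those of the kinases CDK4 and CDK6. This ratio was 0.123 ± 0.01 in the 6-week control and 0.146 ± 0.02 in the 12-week control. At 0.1 µM it went from 0.119 ± 0.01 to 0.164 ± 0.01. Of 40 comparisons of 4 ratios, 12 reached the smallest exact permutation p and 0 passed after adjustment.

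TERT was the member whose libraries spread most at 12 weeks. Its counts in the 12-week control were 5629, 8466, 5074 and 5577, with vial 2 far above the other 3, and at 1 µM they were 4084, 4853, 7175 and 5801. At 0.01 µM they were 5961, 7455, 7089 and 5906 and at 0.1 µM 4956, 5318, 6168 and 7338. The vial that was highest differed between the groups: vial 2 in the control and at 0.01 µM, vial 4 at 0.1 µM and vial 3 at 1 µM. The within-group SD of log2 CPM was 0.0992 after 6 weeks and 0.284 after 12 weeks, 2.86 times as large. Among 8521 genes with a mean of at least 300 counts, the 12-week value of TERT was at the 99.4th percentile. Spread was larger at 12 weeks for 9 of 9 members and for 80.2% of these genes, whose median ratio was 1.33. CCND1 went from 0.118 to 0.202 and CDKN1A from 0.0877 to 0.176, whereas CDKN2A stayed at 0.0803 and 0.0816. Within groups, TERT and CDKN1A varied in opposite directions (r = -0.60 over 32 libraries, as deviations from group means), and TERT and CCND1 in the same direction (r = 0.46). Each library gives 1 value of both genes, so depth and composition are shared between the points.

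**Figure D5:**
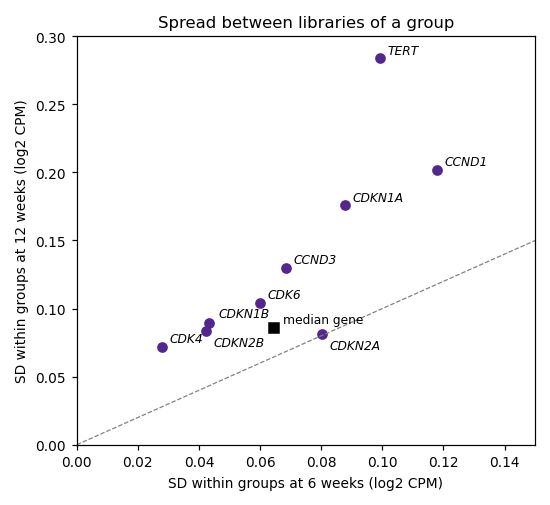
Pooled within-group SD of log2 CPM at 6 weeks (x) and 12 weeks (y) for the 9 tested members (circles) and the median of 8521 genes with a mean of at least 300 counts (square), with the line of equal spread dashed. TERT lies highest (0.284 at 12 weeks), and CDKN2A lies on the line.

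Other genes of these pathways were described from lists of their members. Of 28 other G1/S regulators, 1 was called at 0.1 µM after 6 weeks (4.24% of all genes), RBL2 (p130, a pocket protein of the retinoblastoma family), which rose from 70.6 ± 1.18 to 78.2 ± 2.27 CPM. After 12 weeks 1 was called (1.07% of all genes), MYC, which fell from 351 ± 33.9 to 255 ± 16.8 CPM (log2 fold change -0.46 ± 0.06, edgeR, adjusted p = 0.000777). The MYC call held without control replicate 3 (-0.41, edgeR, adjusted p = 0.00522), and without vial 3 it was lost (edgeR, adjusted p = 0.0644). The RBL2 call was lost when any 1 vial was left out (edgeR, adjusted p from 0.0596 to 0.17). At 0.01 and 1 µM, 0 were called at either time by edgeR, with 2 to 6 at an unadjusted p under 0.05, whereas DESeq2 also called MYC lower at 1 µM after 12 weeks. Between the harvests, CDKN1C (p57, a CIP/KIP inhibitor) rose in all 4 treatments, by 1.00 to 1.59 on the log2 scale, and CCNE1, cyclin E1, fell at the 3 doses by 0.37 to 0.46. Of the 28, 7 rose and 5 fell in the control, 12 and 4 at 0.01 µM, 12 and 7 at 0.1 µM, and 7 and 5 at 1 µM, where 36.6%, 42.7%, 40.3% and 30% of all genes were called. In the control, 11 rose and 5 fell without replicate 3.

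Of 24 p53 target genes tested, which share a regulator with CDKN1A, 2 rose at 0.1 µM after 6 weeks (4.24% of all genes were called). They were MDM2, the ubiquitin ligase of p53 (log2 fold change 0.15 ± 0.04, edgeR, adjusted p = 0.0337), and PLK2, a polo-like kinase (0.19 ± 0.05, edgeR, adjusted p = 0.0351). The MDM2 call was lost when any 1 vial was left out, and the PLK2 call without vial 2 or 3 (edgeR, adjusted p = 0.136 and 0.232). At 12 weeks, when CDKN1A was lower at 0.1 µM, 0 were called at any dose by edgeR, with 4 at an unadjusted p under 0.05 at 0.1 µM, and DESeq2 called BTG2 and PLK3 lower. The list's median log2 fold change at 0.1 µM after 12 weeks was -0.07, beside 0.00 for all genes tested. Between the harvests, 12 rose and 1 fell in the control, 9 and 3 at 0.01 µM, 7 and 6 at 0.1 µM, and 9 and 3 at 1 µM, beside the same shares of all genes called. Of 13 genes of telomerase and shelterin tested, 2 were called at 0.1 µM after 6 weeks (4.24% of all genes were called). NOP10 and NHP2, proteins of the telomerase ribonucleoprotein, fell there by 0.16 and 0.14 on the log2 scale (edgeR, adjusted p = 0.0266 and 0.0495). The NOP10 call was lost without vial 1, 3 or 4 and the NHP2 call without any 1 vial (edgeR, adjusted p from 0.0781 to 0.213). At the other doses and at 12 weeks, 0 were called by edgeR or DESeq2, with 0 to 3 at an unadjusted p under 0.05. Between the harvests, POT1, which binds the single-stranded telomere end, rose in all 4 treatments by 0.18 to 0.45, and NOP10 fell in 3 of the 4. In all, 4 of the 13 rose and 2 fell in the control, 3 and 0 at 0.01 µM, 3 and 1 at 0.1 µM, and 2 and 1 at 1 µM. Of all genes, 36.6%, 42.7%, 40.3% and 30% were called in these comparisons. Without control replicate 3, 3 rose and 1 fell in the control.

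Over the 32 libraries, the genes whose log2 CPM followed a member most closely were IER3 (r = 0.836) and LYPD3 (0.827) for CDK4, OXSR1 (0.800) and PHLDB2 (0.776) for CDK6, and ITSN1 (0.760) and YY2 (0.744) for CCND1. For the inhibitors they were SMARCC2 (0.868) and NFIC (0.846) for CDKN2B, YPEL5 (0.855) and NFIL3 (0.833) for CDKN1A, and EID1 (0.734) and STT3B (0.731) for CDKN1B. TERT had the weakest best match, ZNF92 (0.715), followed by ILK (0.712). These values are Pearson correlations over libraries that share harvests, chosen as the highest of all genes with a mean of at least 10 counts.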

How the data were processed

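The authors sequenced stranded poly(A) libraries on a DNBSEQ platform, and the submitters' processing notes name HISAT2 2.0.4, Bowtie2 2.2.5, RSEM 1.2.8 and GRCh38.p14. The deposited values used here are expected counts estimated per gene by RSEM, without normalization, and the TPM that the authors deposited. The expected counts were rounded before testing, and those of the members were whole numbers already. Deposited FPKM and normalized values were not used, and 0 columns were left unmapped.

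edgeR 4.0.16 was run in R 4.3.3 with limma 3.58.1 (TMM, edgeR's filter on low counts, robust quasi-likelihood fit, two-sided, Benjamini-Hochberg over all genes). PFOS was compared with control within the 16 libraries of a time, and the harvests and the difference of effects within all 32. DESeq2 1.42.0 was the other tool. CPM used TMM factors over all 32 libraries. Ratios of TPM were tested by exact permutation. The fits were tested on simulated counts. Alternatives were other scalings and filters, the vial as replicate block, each vial left out, and other sets of libraries. Leaving out single vials or the library rich in liver transcripts for named genes of the lists was chosen after seeing the data. Figures used matplotlib 3.10.9 and Python 3.11.15.

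Replicate numbers pair the samples, since the labels say that each vial was divided into the 4 groups. The mean correlation of same-numbered libraries was 0.0578 to 0.132 over pairs of groups at 6 weeks and -0.163 to 0.156 at 12 weeks. Of 48 replicate pairs, 0 were identical (chi-square per degree of freedom 2.36 to 16.8). The members and gene lists were chosen with earlier results of these data known. All 10 members are named, and of each list at most the 4 genes per direction with the largest change among those called, and the 2 genes most like each member. The values of 1 listed gene are not reported here.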

Additional observations from a re-analysis of the deposited data

Results flagged for a closer look

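CDK4 in replicate 1 of the 6-week control was at 8718 CPM, while the other 3 libraries lay between 8499 and 8510 CPM, a narrow range in which a small step stands out. CDK4 in replicate 2 of the 12-week control was at 7784 CPM, below the other 3 at 8681 to 8809 CPM. Of 72 groups of 4 libraries checked, 2 stood out in this way, and chance gives about 1 in 20.

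The effect of 0.1 µM PFOS differed between the times for 2 genes of the pathway lists (0.208% of all genes were called). Of 4 liver transcripts tested, 1 was called there too, as lower. For MYC, a transcription factor that promotes G1 exit, the log2 effect was -0.02 after 6 weeks and -0.46 after 12 weeks, a difference of -0.45 (edgeR, adjusted p = 0.00516). Without replicate 3 of the 12-week control it was -0.40 (edgeR, adjusted p = 0.0148). Leaving out vial 3 (edgeR, adjusted p = 0.255) or vial 4 (0.17) ended the call. For BTG2, an antiproliferative p53 target, it was 0.41 and -0.45, a difference of -0.86 (edgeR, adjusted p = 0.0395). That call was lost without replicate 3 of the 12-week control (-0.84, edgeR, adjusted p = 0.0868) and without vial 2 (0.0599), vial 3 (0.339) or vial 4 (0.467).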

How the results depend on the processing

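Counts of called members under the alternatives gave 170 results, of which 153 stayed within 1.5 times the reported count. These include comparisons in which no setting called a member. Fold changes under the alternatives gave 301 results, of which 278 kept direction and side of the threshold. Of the others, 16 lost and 7 gained the call, and 0 reversed. At 0.1 µM after 6 weeks (1 member reported), leaving out 1 vial gave 0 to 0, all 32 libraries in 1 fit gave 0 and DESeq2 on the 8 libraries compared gave 2 (CDKN2B and TERT). At 1 µM after 6 weeks (0 reported), the vial as replicate block gave 1 (CCND3). At 0.1 µM after 12 weeks (1 reported), DESeq2, DESeq2 on 8 libraries and all 32 libraries in 1 fit each gave 2 (CDK4 and CDKN1A), no filter gave 0, and leaving out 1 vial gave 0 to 1, as did leaving out replicate 3 of the 12-week control (0). For 12 against 6 weeks at 1 µM (3 reported), leaving out 1 vial gave as few as 1 member. For the difference of the 0.1 µM effect between times (0 reported), DESeq2 gave 2. The replicate block changed no other call of a member. The cause of these changes was not tested. A count of 0 allows up to 3 counts, which limits CCND2, and the spread of TERT at 12 weeks limits what could be resolved there.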

Other observations

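Genes that act after G1 were described between the harvests. Of 25 genes of S, G2 and M phase, 15 rose in the control, 17 at 0.01 µM, 18 at 0.1 µM and 15 at 1 µM, and 0, 1, 1 and 0 fell (36.6%, 42.7%, 40.3% and 30% of all genes were called). The other 10, 7, 6 and 10 were not called, and RRM2, a subunit of ribonucleotide reductase, fell at 0.01 and 0.1 µM by 0.31 and 0.32 on the log2 scale. Without control replicate 3, the library rich in liver transcripts, 16 rose and 2 fell in the control. Among the largest rises was CDC20, an activator of the anaphase-promoting complex, by 0.32, 0.46, 0.43 and 0.27 on the log2 scale. The list's median was 0.14, 0.22, 0.19 and 0.14, beside 0.00 to 0.01 for all genes. Against the control of the same time, 0 of the 25 were called at any dose by edgeR, with 1 to 5 at an unadjusted p under 0.05, and DESeq2 called MCM3 at 0.1 µM after 12 weeks.

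Of 13 senescence-associated genes tested, 3 rose and 5 fell in the control between the harvests, 3 and 8 at 0.01 µM, 3 and 9 at 0.1 µM, and 3 and 10 at 1 µM, beside the 36.6%, 42.7%, 40.3% and 30% of all genes called. Without control replicate 3, 3 rose and 8 fell in the control. Markers of other cell types fell between the same harvests (4 of 10 in the control and 5 at each dose), and their part in these counts was not tested. IGFBP5, an insulin-like growth factor binding protein, fell by 2.89 to 3.58 on the log2 scale, from 35.3 ± 7.05 to 4.75 ± 1.70 CPM in the control. LMNB1 and HMGB2, nuclear proteins that are lost in senescent cells, rose in all 4 treatments, by 0.34 to 0.47 and 0.34 to 0.61, while CDKN2A rose as well. Against control, CXCL8, a chemokine, fell at 0.1 µM after 12 weeks from 10.8 ± 3.68 to 5.10 ± 0.76 CPM (edgeR, adjusted p = 0.0412), in the comparison in which CDKN1A was lower (1.07% of all genes were called). That call was lost without control replicate 3 (edgeR, adjusted p = 0.146), vial 3 (0.495) or vial 4 (0.241). Of 12 tested there, 8 had an unadjusted p under 0.05, and the list's median log2 fold change was -0.35, beside -0.005 for all genes. DESeq2 called 3 lower, CXCL8 and IGFBP5 among them (282 of 12742 genes were called). After 6 weeks it called 2 higher and 1 lower at 0.1 µM (629 of 12836 genes) and 1 higher at 1 µM (128). At 0.1 µM after 6 weeks LMNB1 rose by 0.13 on the log2 scale (4.24% of all genes were called), and the call was lost without vial 1, 3 or 4 (edgeR, adjusted p from 0.136 to 0.198).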
